A study of Mus musculus with 13 samples.

Results

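The kappa light chain variable segments of the mouse, the Igkv genes, are the germline pieces from which the variable end of most mouse antibody light chains is made. They were taken as all rows of the expression table with an Igkv symbol annotated as immunoglobulin variable genes, which gave 100 of 47643 genes, in 20 families by the number after Igkv. All 100 had reads. Strand-specific sequencing of polyadenylated RNA was done on splenic B cells stimulated for 48 h with 25 µg/ml lipopolysaccharide (LPS), a bacterial cell wall component that makes B cells divide and secrete antibody. The comparison was between 7 WT and 6 Whsc1-KO libraries, all of C57BL/6 background. Whsc1 is a histone methyltransferase. The B cells of both groups came from fetal liver cells, of either WT or Whsc1-KO littermates, that had been transferred into RAG1-KO recipients after lethal irradiation. Such recipients cannot form B or T cells themselves. The splenic B cells were enriched by depletion with antibodies to CD43, which resting B cells lack.

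In a developing B cell, recombination joins 1 Igkv segment to 1 of the short Igkj segments upstream of the constant gene Igkc, and only then is the segment strongly transcribed. The locus can rearrange again, since segments lying upstream of a first join stay available for joining to the remaining Igkj segments. A mature B cell therefore carries its choice of segment into stimulation, and bulk RNA adds the choices of all cells, weighted by how much light chain RNA each cell makes. Fewer cells using a segment and less RNA per cell cannot be told apart in these libraries.

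The locus lies on chromosome 6 (GENCODE M21 annotation of GRCm38, to which all 100 identifiers matched by version). The most distant segment, Igkv2-137, starts 3171 kb before Igkc. Of the segments, 38 lie on the plus strand, as Igkc does, and 62 on the minus strand. The last 60 bases of the variable exon are shown for 8 segments on which the results turn: from the Igkv3 family, nearest to Igkc, from the Igkv2 family, and the 3 most abundant ones, all of Igkv1. The capitals mark the codon of the conserved second cysteine, which pairs with another cysteine inside the variable domain. It is followed by 23 bases in each, the germline start of the third hypervariable loop.
Igkv3-7, chr6:70607977-70608036 (+): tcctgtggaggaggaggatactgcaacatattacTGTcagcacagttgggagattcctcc
Igkv3-12, chr6:70518790-70518849 (+): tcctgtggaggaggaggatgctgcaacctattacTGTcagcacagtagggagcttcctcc
Igkv3-1, chr6:70704118-70704177 (+): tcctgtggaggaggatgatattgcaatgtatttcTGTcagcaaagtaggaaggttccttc
Igkv2-137, chr6:67556157-67556216 (+): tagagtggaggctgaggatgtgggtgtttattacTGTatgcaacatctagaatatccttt
Igkv2-109, chr6:68303099-68303158 (+): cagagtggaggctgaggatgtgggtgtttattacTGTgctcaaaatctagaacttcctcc
Igkv1-135, chr6:67610449-67610508 (+): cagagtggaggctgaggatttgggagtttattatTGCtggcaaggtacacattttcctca
Igkv1-117, chr6:68121768-68121827 (+): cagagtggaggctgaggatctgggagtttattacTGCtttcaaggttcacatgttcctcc
Igkv1-110, chr6:68271208-68271267 (+): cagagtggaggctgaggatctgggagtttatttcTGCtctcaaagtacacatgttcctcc

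Segments resemble each other, which bears on how reads are divided among them. Over their last 310 bases, Igkv1-117 and Igkv1-110 were 96.8% identical, as were Igkv3-7 and Igkv3-12, and Igkv2-137 and Igkv2-109 88.4%. Of the 76-base words in a segment's transcript (76 bases is the read length), 30.1% in Igkv1-117 and 19.4% in Igkv3-7 also stood in another Igkv row, against 2.68% in Igkv2-109. Of the members, 37 shared no such word, and 2, Igkv6-20 and Igkv6-29, shared over 50% of theirs (59.3%), so their split is uncertain. How reads with several matches were divided is not given in the sources used here.

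Several features of the libraries touch the results that follow. Reads in genes numbered 38881663 to 53019516 per library, of which 224413 to 437941 lay in Igkv segments. The targeted gene, Whsc1, ran from 5537 to 7459 normalized counts in the WT libraries and from 3733 to 5261 in Whsc1-KO. Whsc1-KO replicates 4 to 6 stood apart from replicates 1 to 3 on both the first and the second principal component (48.5% and 16.0% of the variance). WT replicate 5 stood apart in its Igkv segments. Summed myeloid markers (5 genes) were at 307 to 723 normalized counts in WT, 1116 to 1440 in Whsc1-KO replicates 1 to 3 and 10420 to 13246 in replicates 4 to 6. Summed erythroid markers (5 genes) were at 102 to 2223, 1372 to 2207 and 11670 to 180009 in the same order. The 4 tested members of each of these lists were higher in Whsc1-KO, where 26.1% of all tested genes were higher and 25.7% lower. Of 5 B cell markers 3 were lower (Cd79a, Cd79b and Cd22), with sums of 275401 to 318151 in WT, 235780 to 251864 and 181869 to 190286. Of 6 plasma cell markers 3 were higher (Sdc1, Xbp1 and Mzb1), with sums of 68466 to 169332, 85993 to 137160 and 143196 to 193930. Summed T cell markers were at 73.7 or less in all libraries. The part of these cells in the Igkv results was not tested. By Xist and Y-linked RNA, the first 3 WT libraries were female and the first 3 of Whsc1-KO male, so that within replicates 1 to 3 sex and genotype cannot be told apart; the later replicates of both groups held both sexes.

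In the libraries of both genotypes the Igkv reads were concentrated in a few distant segments. Igkv1-117 held a mean of 11.6% of all Igkv reads over the 13 libraries, Igkv1-110 held 10.5% and Igkv1-135 held 7.14%. These 3 kept their ranks when reads were scaled to transcript length. The next in rank were Igkv10-96 (3.22%), Igkv12-44 (2.64%), Igkv8-24 (2.57%), Igkv14-111 (2.51%), Igkv5-43 (2.41%), Igkv6-15 (2.25%), Igkv8-27 (2.18%), Igkv16-104 (2.12%) and Igkv4-59 (2.11%). The 12 together held 51.2%, while the 23 segments with a mean share under 0.1% held 0.815% in all.

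The total of Igkv RNA did not separate the genotypes. Igkv segments took 0.515%, 0.740% and 0.887% (lowest, median and highest) of the reads in genes in WT and 0.497%, 0.629% and 1.08% in Whsc1-KO, so the ranges overlapped. Within replicates 1 to 3 the Whsc1-KO mean was higher by 0.218 percentage points, and within the later replicates the difference was -0.169. Igkc, the constant part of every kappa chain, had 452373 ± 111540 normalized counts (SD, n = 7) in the WT libraries and 494242 ± 194714 (SD, n = 6) in Whsc1-KO, with a log2 fold change of 0.08 (SE 0.24, adjusted p = 0.789 by limma). Igkv reads per 100 Igkc reads were 63.8, 69.9 and 77.3 in WT and 57.4, 62.5 and 76.3 in Whsc1-KO. The overlap came from Whsc1-KO replicate 1 alone, and this ratio was not tested. The 5 Igkj segments were listed at 0 in all libraries.

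Across segments, 20 of the 98 tested members were higher and 9 lower in Whsc1-KO (limma on log2 of the normalized count plus 1, Benjamini-Hochberg adjusted p under 0.05). A normalized count of 10 in at least 6 libraries was needed for the test, and Igkv1-131 and Igkv1-35 missed it. Of all 13947 genes tested, 26.1% were higher and 25.7% lower, against 20.4% and 9.18% of the members, so members were not called more often than genes at large. The median log2 fold change was 0.17 over the members and 0.00 over all genes. With each library scaled to its own Igkv total, which compares shares, 20 members were higher and 10 lower, 19 and 7 of them the same segments. In that fit 6.03% of all genes were higher and 6.1% lower, but the scaling adds the spread of the Igkv total to every other gene, so nothing about the members is read from it. The authors' deposited table had 20 members higher and 6 lower (background 22.2% and 19.3%), of which 19 and 6 were among the limma calls.

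Leaving out 1 library, the counts ran from 13 (without Whsc1-KO replicate 4) to 25 higher and from 5 (without Whsc1-KO replicate 6) to 13 lower. The share of all genes called was not counted in these fits, so nothing about the members is read from these counts.

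The calls differed between replicates 1 to 3 and the later replicates, sets made by replicate number alone. Without Whsc1-KO replicates 4 to 6, 20 members were higher and 5 lower (background 14% and 15.6%), of which 15 and 3 were among the calls in all libraries. Within replicates 1 to 3, 19 members (19.4%) were higher and 3 (3.06%) lower (background 6.79% and 8.76%), while within the later replicates 7 (7.14%) were higher and 22 (22.4%) lower (background 30% and 30.1%). Of these, 7 and 8 were among the calls in all libraries. The normalized values of WT and Whsc1-KO did not overlap for 5 members that were higher and 1 that was lower, against a background of 9.03% and 10.2% of genes. The 5 were Igkv3-7, Igkv3-9, Igkv3-12, Igkv1-132 and Igkv4-57-1 (named after its values were seen), and the 1 was Igkv9-129. Shares of Igkv reads have no such background, so where shares are said not to overlap, that is a description.

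**Figure D1:**
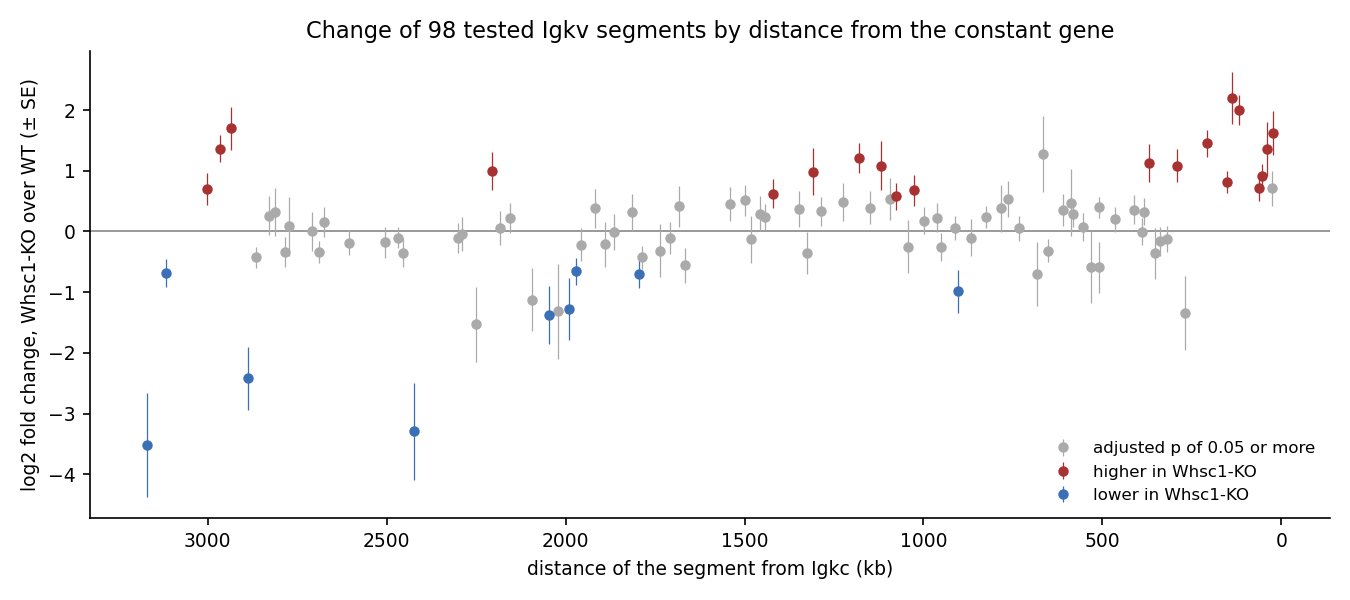
Log2 fold change (Whsc1-KO over WT, y axis, bars ± SE) of the 98 tested Igkv segments by their distance from Igkc in kb (x axis, Igkc at the right end). Red points passed the test as higher and blue points as lower; 8 of the 9 Igkv3 segments at the right end are red, and the lowest points are Igkv2-137 at -3.51 and Igkv2-109 at -3.29.

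The segments nearest to Igkc, those of the Igkv3 family, were higher in Whsc1-KO. The family's 9 segments lie 22.3 to 208 kb from Igkc on the plus strand, and 8 of the 9 rose (background 26.1%); the other, Igkv3-2, had a log2 fold change of 0.71 (SE 0.29, adjusted p = 0.051 by limma). The family held 3.80%, 4.30% and 6.35% of Igkv reads in WT (lowest, median and highest) and 8.94%, 9.59% and 11.7% in Whsc1-KO. By this share every Whsc1-KO library was above every WT library. The summed normalized counts of the family overlapped, since WT replicate 5 (24099) was above Whsc1-KO replicate 1 (22848). Summed over the family and fitted with all other genes, the log2 fold change was 1.04 (SE 0.19, adjusted p = 0.00075 by limma). Replicates 1 to 3 alone gave 1.31 and the later replicates alone 0.80, with adjusted p of 0.00508 and 0.0249 by limma. Among 13869 rows tested in that fit, 26.1% were higher and 25.8% lower, and of the 20 families 1 was higher and 3 were lower.

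Igkv3-7 changed most among the abundant members of the family. Its share was 0.224%, 0.269% and 0.592% in WT and 0.958%, 1.38% and 2.16% in Whsc1-KO. The highest WT library, replicate 5, stayed below the lowest Whsc1-KO library. Its normalized count averaged 1080 ± 531 (SD, n = 7) in the WT libraries and 4112 ± 885 (SD, n = 6) in the knockout, which is a log2 fold change of 2.00 (SE 0.24, adjusted p = 3.83e-05 by limma).

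Igkv3-12, the most distant of the family from Igkc, moved the same way. Its share was 0.398%, 0.558% and 0.894% in WT and 1.51%, 1.74% and 2.02% in Whsc1-KO, with no overlap, and the log2 fold change was 1.45 (SE 0.22, adjusted p = 0.000238 by limma). Since Igkv3-7 and Igkv3-12 share 19.4% of their 76-base words, part of their reads could have been assigned to either. Igkv3-1, the closest segment to Igkc, which shares no such word with another Igkv row, had shares of 0.0428%, 0.114% and 0.158% in WT and 0.156%, 0.377% and 0.436% in Whsc1-KO. Those ranges overlapped in Whsc1-KO replicate 1 alone, and the log2 fold change was 1.62 (SE 0.37, adjusted p = 0.00252 by limma). Igkv3-9, with few reads, rose from 31.8 ± 12.3 to 185 ± 185 normalized counts (SD, n = 7 and 6), a log2 fold change of 2.20 (SE 0.43, adjusted p = 0.00102 by limma). Igkv3-4 and Igkv3-5 rose by 0.92 and 0.72 on the log2 scale (limma adjusted p = 0.00209 and 0.0138), but within the later replicates these were 0.64 and 0.24 (adjusted p = 0.106 and 0.327, limma).

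**Figure D2:**
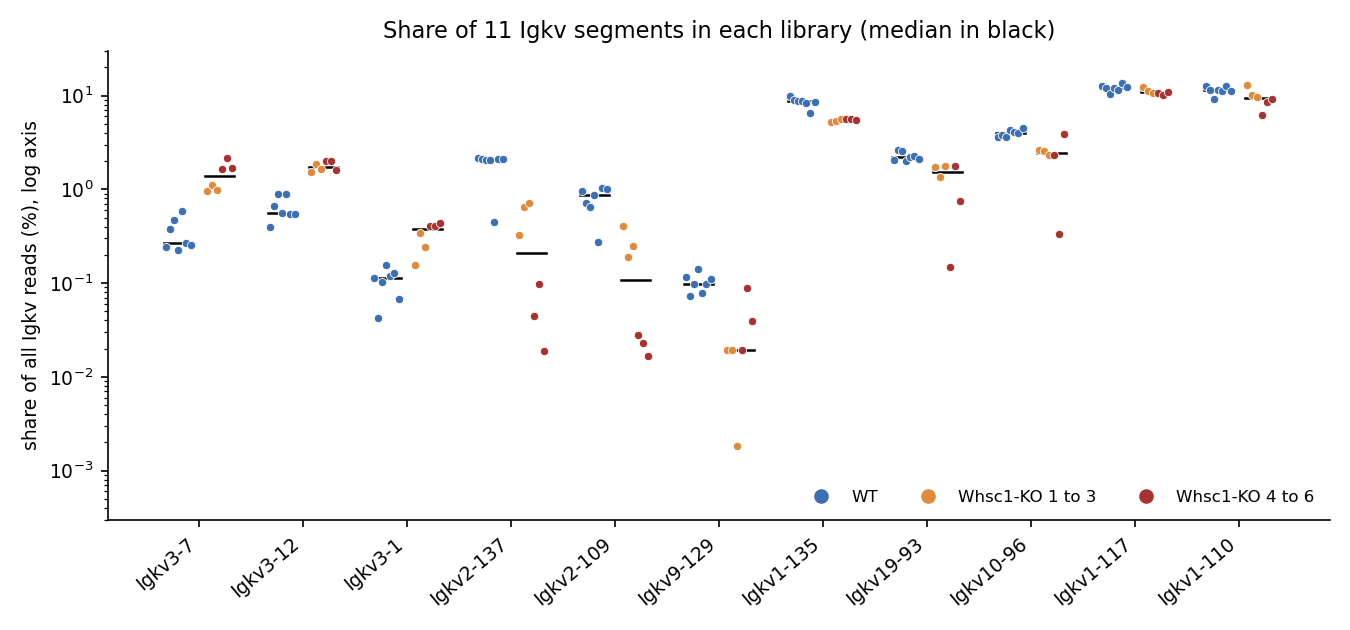
Share of all Igkv reads (y axis, percent, log axis) of 11 segments in each library; each point is 1 library and each black bar the median of its genotype. The Igkv3 segments at the left lie higher in Whsc1-KO, Igkv2-137 and Igkv2-109 lie lower with the lowest points in replicates 4 to 6, and Igkv1-117 and Igkv1-110 overlap between the genotypes.

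The segments that fell most were 2 of the 3 Igkv2 segments, at the far end of the locus. Igkv2-137, the farthest of all, held 0.451%, 2.10% and 2.14% of Igkv reads in WT and 0.0191%, 0.211% and 0.708% in Whsc1-KO. The overlap came from WT replicate 5 alone, since the other WT libraries were at 2.04% or more. Whsc1-KO replicates 1 to 3 were at 0.324% to 0.708% and replicates 4 to 6 at 0.0191% to 0.0987%. The normalized count averaged 5701 ± 2244 (SD, n = 7) in the WT libraries and 1165 ± 1413 (SD, n = 6) in the knockout, which is a log2 fold change of -3.51 (SE 0.85, adjusted p = 0.00388 by limma). It was -1.61 within replicates 1 to 3 (limma adjusted p = 0.0478) and -5.45 within the later ones (limma adjusted p = 0.000118).

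Igkv2-109, which lies 2423 kb from Igkc, was also lower in Whsc1-KO. Its share was 0.275%, 0.861% and 1.04% in WT, with replicate 5 the lowest, and 0.0166%, 0.108% and 0.407% in Whsc1-KO, with replicates 4 to 6 the lowest. The log2 fold change was -3.29 (SE 0.80, adjusted p = 0.00372 by limma). Replicates 1 to 3 alone gave -1.12 and the later ones alone -5.43 (limma adjusted p = 0.0425 and 1.99e-05). The other segment of the family, Igkv2-112 (named after its values were seen), lies between them and had a log2 fold change of -0.18 (SE 0.26, adjusted p = 0.584 by limma). The family sum fell by 1.80 on the log2 scale (SE 0.40, adjusted p = 0.0021 by limma), and its share was 1.09% in WT replicate 5, 3.20% to 3.71% in the other WT libraries and 0.496% to 1.39% in Whsc1-KO.

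Igkv1-135, the neighbour of Igkv2-137 in the locus, was the only one of the 3 most abundant segments to pass the test with all libraries. Its share was 6.46%, 8.78% and 9.99% in WT and 5.23%, 5.54% and 5.67% in Whsc1-KO, without overlap. Its normalized counts did overlap, at 15551 to 36330 in WT and 11659 to 27672 in Whsc1-KO. The log2 fold change of its normalized count averaged -0.69 (SE 0.22, adjusted p = 0.02 by limma). It was -0.39 within replicates 1 to 3 (limma adjusted p = 0.348) and -0.97 within the later ones (limma adjusted p = 0.0122). Igkv1-117 had a log2 fold change of -0.19 (SE 0.21, adjusted p = 0.463 by limma) and Igkv1-110 one of -0.35 (SE 0.24, adjusted p = 0.247 by limma). In both the sign turned within replicates 1 to 3, to 0.36 (limma adjusted p = 0.337 and 0.329). Within the later replicates both were called lower, at -0.67 and -0.998 (limma adjusted p = 0.00523 and 0.000656). The Igkv1 family as a whole held 29.6%, 33.3% and 36.3% in WT and 24.4%, 27.5% and 31.9% in Whsc1-KO. Its family sum did not pass the test with all libraries (log2 fold change -0.34 with an SE of 0.22, limma adjusted p = 0.203). That sum was 0.20 within replicates 1 to 3 (limma adjusted p = 0.604) and -0.83 within the later ones (limma adjusted p = 0.00341).

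Close to these distant segments others moved the opposite way. Igkv1-132 rose from 80.3 ± 14.4 to 221 ± 90.7 normalized counts (SD, n = 7 and 6), a log2 fold change of 1.37 (SE 0.23, adjusted p = 0.00041 by limma). Igkv14-130 rose by 1.70 (SE 0.36, adjusted p = 0.00158 by limma), with a share of 0.466% in Whsc1-KO replicate 4 and 0.220% or less elsewhere. Igkv9-129, next to it, fell from 329 ± 137 to 77.9 ± 60.6 normalized counts, a log2 fold change of -2.42 (SE 0.52, adjusted p = 0.0018 by limma). The 3 lie 2966, 2935 and 2886 kb from Igkc, so neighbouring distal segments differed in direction.

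Some segments were far lower in 1 or 2 Whsc1-KO libraries than in the others. Igkv10-96 held 3.62% to 4.46% in WT but 0.333% in Whsc1-KO replicate 5, against 2.31% to 2.60% in replicates 1 to 4 and 3.89% in replicate 6, and did not pass the test (log2 fold change -1.12 with an SE of 0.52, limma adjusted p = 0.085). Igkv10-95 fell by 1.37 on the log2 scale (SE 0.48, adjusted p = 0.028 by limma), a call that ended without WT replicate 4 or Whsc1-KO replicate 5 or 6. It was -0.67 without Whsc1-KO replicates 4 to 6 (limma adjusted p = 0.14) and -0.48 within replicates 1 to 3 (limma adjusted p = 0.349). Igkv10-94 (named after its values were seen) held 0.0209% in Whsc1-KO replicate 5 and 0.44% or more in all other libraries. It did not pass the test (log2 fold change -1.32 with an SE of 0.78, limma adjusted p = 0.17). These 3 segments make up the Igkv10 family, which held 0.372% in Whsc1-KO replicate 5. The other Whsc1-KO libraries were at 2.97% to 4.89% and WT at 4.37% to 5.53%. Igkv19-93, the only member of its family, held 2.00% to 2.64% in WT. In Whsc1-KO it held 0.147% in replicate 4, 0.743% in replicate 6 and 1.37% to 1.78% in the other 4. All 6 of these shares lay below the lowest WT share. The normalized counts of Igkv19-93 did overlap, with Whsc1-KO replicate 3 (8689) above the highest WT library (8445). Its log2 fold change was -1.28 (SE 0.51, adjusted p = 0.0491 by limma), and -0.28 (limma adjusted p = 0.29) without Whsc1-KO replicates 4 to 6. Its call, and that of its family, ended without any 1 of the 7 WT libraries or Whsc1-KO replicate 5 or 6. Igkv8-24 was at 2.27% to 3.44% in WT, at 0.584% in Whsc1-KO replicate 4 and 1.15% in replicate 5, and at 2.45% to 3.24% in the other Whsc1-KO libraries. Igkv5-43, at 1.56% in WT replicate 5 and 2.96% to 3.81% in the other WT libraries, fell by 0.99 on the log2 scale (SE 0.36, adjusted p = 0.032 by limma), and by 0.23 without Whsc1-KO replicates 4 to 6 (limma adjusted p = 0.556). That call ended without any 1 of WT replicates 1, 4, 6 and 7 or Whsc1-KO replicates 4 to 6.

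In the middle of the locus the Igkv4 family, the largest with 26 segments and all on the minus strand, had 6 members that rose and 1 that fell (background 26.1% and 25.7% of genes), so the share of members that rose was near that of genes at large. Its share was 7.74%, 9.31% and 11.9% in WT and 11.9%, 13.9% and 16.2% in Whsc1-KO. The lowest Whsc1-KO library, at 11.93%, lay just above the highest WT library, at 11.88%. The family sum did not pass the test with all libraries (log2 fold change 0.48 with an SE of 0.23, limma adjusted p = 0.0934) and passed without WT replicate 5 (0.58, limma adjusted p = 0.0446). Igkv4-53 and Igkv4-68 rose by 0.58 and 0.62 (limma adjusted p = 0.0412 and 0.0405). Each of these 2 calls ended without any 1 of WT replicates 1, 2, 3, 6 and 7 or Whsc1-KO replicates 2, 3, 4 and 6. Igkv4-59, the most abundant member, had a log2 fold change of 0.33 (limma adjusted p = 0.251), and of its 76-base words 41.6% stood in other Igkv rows. The Igkv8, Igkv6 and Igkv12 families (10, 9 and 6 segments) had log2 fold changes of 0.09, -0.05 and 0.10 for their sums (limma adjusted p = 0.75, 0.829 and 0.704). The Igkv13 family, of 2 segments, fell by 0.53 (SE 0.19, adjusted p = 0.0293 by limma), and this call ended without any 1 of WT replicates 4, 5 and 7 or Whsc1-KO replicates 1, 2 and 5.

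**Figure D3:**
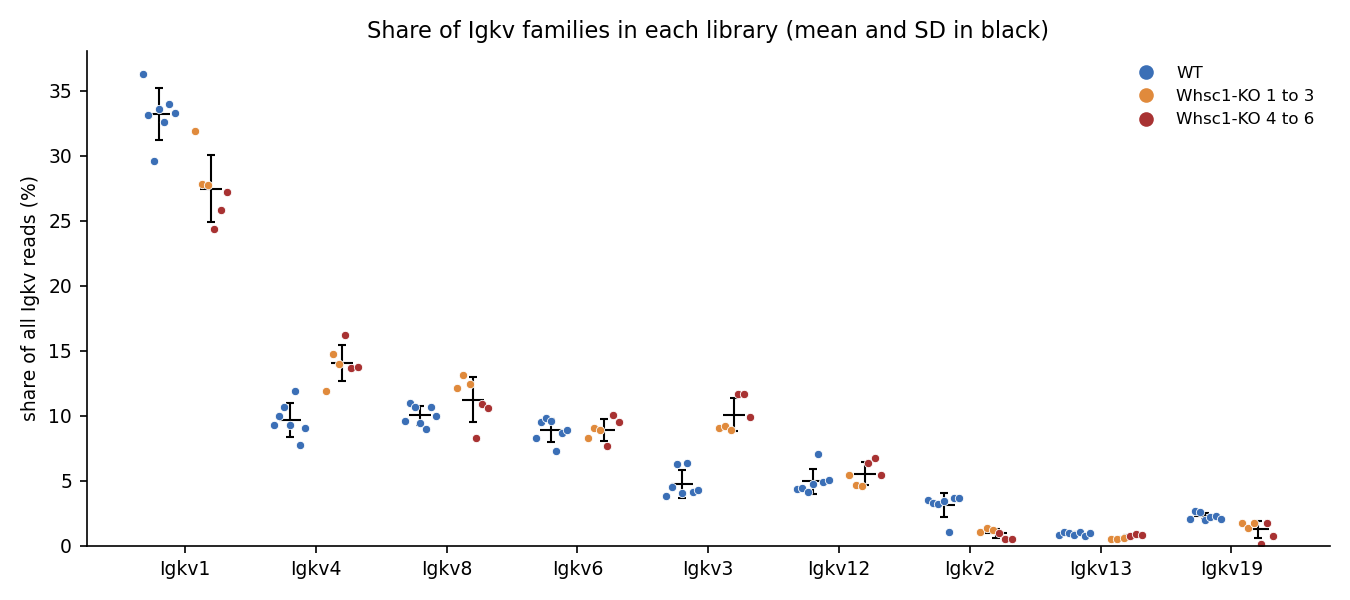
Share of all Igkv reads (y axis, percent) of 9 families in each library; points are libraries and black bars the mean and SD of each genotype. The Igkv3 and Igkv4 shares lie higher in every Whsc1-KO library than in any WT library, and in Igkv2 the single low WT point is replicate 5.

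Set out along the locus, the proximal end held a higher share of Igkv reads in Whsc1-KO and the distal end a lower one. The distance from Igkc to the farthest segment was divided into 3 stretches of 1057 kb, a split chosen after the values were seen. The proximal stretch, with 42 segments, held 31.2%, 33.5% and 36.2% of Igkv reads in WT and 38.4%, 39.5% and 42.9% in Whsc1-KO, without overlap. The distal stretch, with 26 segments, held 45.1%, 48.9% and 51.7% in WT and 40.1%, 40.8% and 43.2% in Whsc1-KO, again without overlap. The middle stretch overlapped, at 16.1% to 20.5% and 16.9% to 20.1%. Of the tested segments 11 were higher and 1 lower in the proximal stretch, 5 and 4 in the middle one, and 4 and 4 in the distal one, of 41, 32 and 25 tested. With 26.1% of all genes higher and 25.7% lower, the higher calls in the proximal stretch were near the background and those in the others below it. These shares are descriptions with no test, and the proximal gain is for the most part that of the Igkv3 family, whose mean share differed by 5.31 percentage points out of 6.29 for the stretch.

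Igkv use was also more even in Whsc1-KO. The effective number of segments (the exponential of the Shannon entropy, the number of equally used segments that would give the same diversity) was 37.4, 39.6 and 43.3 in WT and 41.6, 46.7 and 50.0 in Whsc1-KO. The overlap came from WT replicate 3 and Whsc1-KO replicate 1. The 10 most used segments of each library held 48.7% to 53.4% in WT and 40.8% to 48.2% in Whsc1-KO, without overlap.

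**Figure D4:**
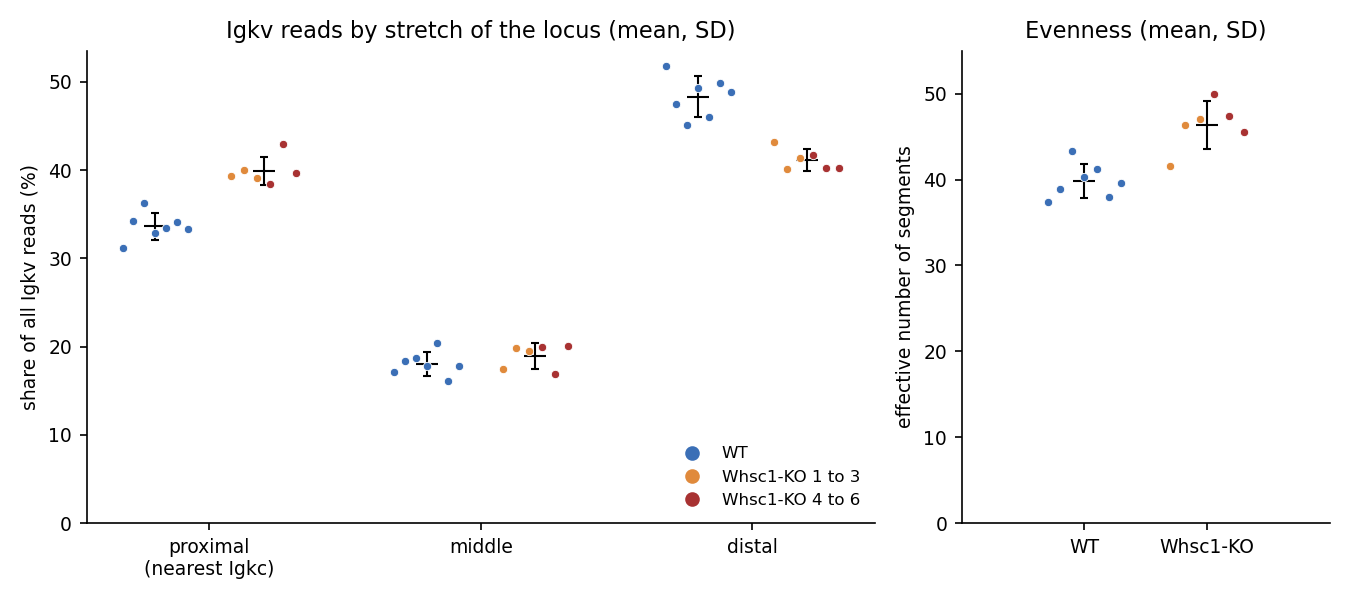
Left, share of all Igkv reads (y axis, percent) in 3 equal stretches of the locus by distance from Igkc; right, effective number of segments. Points are libraries and black bars the mean and SD; the proximal share lies at 38.4% or more in Whsc1-KO and at 36.2% or less in WT.

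Between libraries, the share of Igkv reads that would have to move between segments to make 2 libraries alike was 3.54% to 12.1% among WT without replicate 5, and 10.0% to 13.4% between replicate 5 and other WT. It was 5.69% to 8.45% among Whsc1-KO replicates 1 to 3 and 12.4% to 13.5% among replicates 4 to 6. From WT without replicate 5, Whsc1-KO replicates 1 to 3 were 13.2% to 17.8% away and replicates 4 to 6 were 16.3% to 27.2% away. The nearest libraries of different genotype were WT replicate 5 and 1 of Whsc1-KO replicates 4 to 6, at 12.1%.

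Other genes of the light chain were measured beside the segments. Of 16 listed light chain partners 8 were tested, of which none rose and 3 fell (background 26.1% and 25.7%). The lambda chain is the alternative to kappa, and its segments Iglv1 and Iglv3 and constant gene Iglc1 fell by 0.65, 0.47 and 0.64 on the log2 scale (limma adjusted p = 0.0472, 0.0491 and 0.0145). Iglv2, Iglc2 and Iglc3 did not pass, at -0.11, -0.13 and 0.06 (limma adjusted p = 0.75, 0.456 and 0.69). The lambda share of light chain variable reads was 12.01% ± 1.71 (SD, n = 7) in the WT libraries and 9.49% ± 2.80 (SD, n = 6) in Whsc1-KO. By library it was 9.52% to 15.3% in WT and 6.34% to 8.05% in Whsc1-KO replicates 1 to 3. In Whsc1-KO replicates 4 to 6 it was 10.1% to 13.8%, within the WT range. Of 7 genes of recombination and editing, 2 passed the filter and neither passed the test: Rag1, a subunit of the recombinase, had 22.0 and 19.8 normalized counts in the mean, and Vpreb3, a surrogate light chain partner, 1777 and 1649. Of 13 factors that act on kappa promoters and enhancers, 2 rose and 2 fell (background 26.1% and 25.7%). Pou2af1, the coactivator of the octamer-binding factors, rose by 0.38 and Tcf3, which encodes E2A, by 0.20 (limma adjusted p = 0.00422 and 0.0384). Irf8 and Ebf1, transcription factors of B cell identity, fell by 0.28 and 0.23 (limma adjusted p = 0.00163 and 0.00278). Of 5 early B lineage markers, Rag1 alone was tested.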

How the data were processed

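The authors deposited 1 table of normalized counts per gene, whose columns name a genotype and a replicate. The tools listed in the submitters' processing notes are STAR (2.5.1b), DESeq2 (1.10.1) and RSEM (1.2.28); they list 2 builds, mm9 and GRCm38, without saying what each served for. These deposited values are a signal, the counts of each gene after division by a size factor: in every library 100% of them were whole multiples of 1 step within 0.05 reads, so whole reads were recovered for shares. The authors' deposited table of log2 fold changes and adjusted p-values was used only for its calls.

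Limma 3.58.1 with a mean-variance trend was fitted in R 4.3.3 to log2(normalized count + 1) of the 13947 genes at 10 or more in at least 6 libraries, two-sided, with Benjamini-Hochberg adjustment over all of them and a threshold of 0.05; this understates changes of low genes. Family sums were fitted in place of their segments. Shares, stretches and evenness are descriptions. Alternatives were a pseudocount of 8, no filter, TMM, Igkv-total scaling, edgeR 4.0.16 and DESeq2 1.42.0 on recovered reads, a replicate block, sets of replicates and each library left out. The fit was tested on simulated data.

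Members, lists and the naming rule were chosen with earlier results of these data known. The rule took the 12 segments of highest mean share, the 6 largest called changes each way (group mean at least 100), 5 with a library far above its group (mean share of 0.1% or more), up to 3 of each of the 6 largest families, and the fixed lists, giving 35 segments. The design text calls the libraries biological replicates and names no donors, so p-values measure the spread between these samples. Sequences and coordinates come from GENCODE M21 (GRCm38). Plots used Python 3.11.15. A further listed B cell marker is not reported here.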

Additional observations from a re-analysis of the deposited data

Results flagged for a closer look

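Single libraries lay far from the others of their group in 13 of the 104 combinations of a measure and a genotype that were examined. For a single combination chance gives about 1 in 20. The measures overlap, as a family and its segments do, so the flags are not independent and their number is not set against chance.

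WT replicate 5 accounted for 7 of the 13. In it the Igkv2 family held 1.09%, against 3.20% to 3.71% in the other WT libraries, and Igkv2-137 0.451% against 2.04% to 2.14%. Igkv5-43 was also low, at 1.56% against 2.96% to 3.81%. The Igkv12 family was high, at 7.05% against 4.15% to 5.04%, with Igkv12-44 at 3.58% against 2.18% to 2.59% and Igkv12-46 at 2.24% against 0.945% to 1.48%. Igkv4-68 stood at 1.29% against 0.758% to 0.878%. Without this library the log2 fold changes of Igkv2-137 and Igkv2-109 were -3.78 and -3.48.

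In WT replicate 3, Igkv1-110 held 9.28%, against 11.1% to 12.5%. In Whsc1-KO replicate 1 the most used segment held 13.03%, against 10.2% to 11.2% in the other Whsc1-KO libraries and 10.3% to 13.7% in WT. Igkv reads in that replicate came to 76.3 per 100 Igkc reads, against 57.4 to 63.4 in the other Whsc1-KO libraries. WT ran from 63.8 to 77.3, so replicate 1 lay within the WT range and the other Whsc1-KO libraries below it. In Whsc1-KO replicate 4 Igkv8-27 held 1.36%, against 2.27% to 2.67%, and Igkv14-130 0.466%, against 0.0986% to 0.220%. In Whsc1-KO replicate 5 the proximal stretch held 42.9%, against 38.4% to 39.99%.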

How the results depend on the processing

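With all libraries 20 segments were higher and 9 lower, and 1 family was higher and 3 lower. Pseudocount, filter, scaling, edgeR (17 and 6) and DESeq2 (21 and 7) left the segment counts within 1.5 times. The replicate block gave 16 and 5 segments and 2 and 1 families. In the same 12 libraries without it the counts were 15 and 7 segments and 1 and 1 families. Deviations of same-numbered libraries from their group means correlated weakly (r from -0.11 to 0.21). These deviations also carry the split between Whsc1-KO replicates 1 to 3 and 4 to 6, so whether the numbers pair libraries cannot be told. Without Whsc1-KO replicates 4 to 6 the lower segments numbered 5; within replicates 1 to 3 they numbered 3, with 1 lower family; within the later replicates there were 7 higher and 22 lower segments and 8 lower families. Leaving out 1 library gave 13 to 25 higher and 5 to 13 lower segments, and 1 to 2 higher and 1 to 6 lower families. Beyond the main limma fits, the share of all genes called was counted for segments alone, in the sets of replicates and with Igkv-total scaling. Without that share the other counts are descriptions. The genotype difference in Igkv percent of gene reads was 0.01, but 0.218 within replicates 1 to 3 and -0.169 within the later ones. That of the Igkv8 share was 1.19 points, 2.52 without Whsc1-KO replicates 4 to 6 and 0.137 within the later replicates. That of the most used segment was -0.90, and 0.063 within replicates 1 to 3. That of the Igkv12 share was 0.58, and -0.074 without Whsc1-KO replicates 4 to 6. That of the Igkv6 share was 0.05, with either sign across these sets (-0.468 to 0.481). That of the Igkv13 share was -0.24, with -0.405 within replicates 1 to 3 and -0.0887 within the later ones. The cause of these changes was not tested.

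Log2 fold changes that turned sign were all of results that had not passed the test with all libraries. Without Whsc1-KO replicates 4 to 6 they were Igkv1-117 0.12, Igkv1-110 0.14, Igkv8-24 0.38, Igkv6-15 0.19, Igkv16-104 0.036 and Igkv12-41 0.36, and the sums of Igkv1 0.0073 and Igkv6 0.18. Within replicates 1 to 3 they were Igkv1-117 0.36, Igkv1-110 0.36, Igkv8-24 0.44, Igkv14-111 0.11, Igkv6-15 0.24, Igkv16-104 0.30, Igkv6-13 0.24 and Igkv12-41 0.82, and the sums of Igkv1 0.20 and Igkv6 0.31. Within the later replicates they were Igkv12-44 -0.32, Igkv8-27 -0.52, Igkv4-59 -0.071, Igkv9-123 -0.92 and Igkv8-30 -0.15, and the sums of Igkv8 -0.44 and Igkv12 -0.25. Of these, Igkv8-27, Igkv9-123 and the Igkv8 sum passed the test in that set (limma adjusted p = 0.0304, 0.0203 and 0.0177). Igkv9-123 passed as higher without Whsc1-KO replicates 4 to 6, at 1.11 (limma adjusted p = 0.0462). Leaving out 1 library, Igkv9-123 ran from -0.30 to 0.40, Igkv12-44 from -0.049 to 0.19, Igkv8-27 from -0.11 to 0.23, Igkv16-104 from -0.28 to 0.012 and Igkv12-41 from -0.30 to 0.055, and the sums of Igkv6 from -0.20 to 0.039, Igkv8 from -0.090 to 0.19 and Igkv12 from -0.010 to 0.24. Scaled to the Igkv total, the Igkv6 sum was 0.0094. Segments with few reads, such as Igkv3-9 at 31.8 normalized counts in WT, are measured least precisely.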
